A study of Caenorhabditis elegans with 2 samples.

Results

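The 8 genes described here encode the *C. elegans* retinoblastoma protein LIN-35 and the other subunits of the DREAM complex (*lin-35*, *efl-1*, *dpl-1*, *lin-9*, *lin-37*, *lin-52*, *lin-53* and *lin-54*), out of 19985 annotated protein-coding genes. They were chosen by name, as a family, because *lin-35* has a strong region of ETS-7 signal at its promoter, so the signal at *lin-35* is what the choice rests on and is given as a description without a test. Every region was taken whose summit lay between 2000 bp upstream of the annotated gene and its 3' end. All 8 symbols were found as protein-coding genes in the annotation. The bound factor, ETS-7, belongs to the ETS family of transcription factors, and its binding was mapped by ChIP-seq, which sequences the DNA that comes down with an immunoprecipitated chromatin protein. The material was whole hermaphrodite early embryos of strain OP487, a single transgenic line whose ETS-7 carries a C-terminal GFP-FLAG tag, collected 3 hours after synchronization by egg bleaching and immunoprecipitated with an antibody to GFP. There is 1 group, with 2 biological replicates numbered 3 and 4 in the labels, and no untagged or mutant group. In whole embryos, strong binding in few cells and weak binding in many cannot be told apart.

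DREAM joins a DNA-binding pair made of an E2F protein (EFL-1) and its partner (DPL-1), a retinoblastoma family protein (LIN-35) and the MuvB core of LIN-9, LIN-37, LIN-52, LIN-53 and LIN-54. It is known mainly as a repressor of cell-cycle genes and, in somatic cells of the worm, of germline genes, and its genes belong to the synthetic multivulva class B (synMuv B) genes that restrain vulval cell fates. ETS domains bind DNA around a GGAA core, E2F proteins bind GC-rich sites, and LIN-54 binds the cell cycle genes homology region (CHR), a TTTGAA-type element.

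Sequences are printed for the regions below to show where matches to the motifs searched lay within 100 bp of their summits. The regions of *efl-1*, *lin-54* and *lin-37* were picked for a match that they hold, so the set does not represent all member regions. Each runs 100 bp to either side of the summit, 201 bases in all, on the forward strand of WBcel235 (ce11), read from the RefSeq genome. Capitals mark matches on either strand to CCGGAA (ETS type), GCGGGAA (E2F type) or TTTGAA (CHR type). The pooled region of *lin-9* (III:8904146-8904346) is shown as the strongest member region after that of *lin-35*, with 3 matches to TTTGAA. The replicate 4 region of *efl-1* (V:16965795-16965995) is shown for a GCGGGAA match beside the summit. The pooled regions of *lin-54* (IV:13239181-13239381) and *lin-37* (III:7074291-7074491) are shown as the pooled regions of the members with CCGGAA within 100 bp of the summit.
lin-9: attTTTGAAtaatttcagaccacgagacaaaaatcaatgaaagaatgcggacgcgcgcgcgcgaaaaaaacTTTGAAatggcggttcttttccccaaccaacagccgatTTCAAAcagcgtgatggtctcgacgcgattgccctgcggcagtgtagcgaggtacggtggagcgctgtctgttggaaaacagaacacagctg
efl-1: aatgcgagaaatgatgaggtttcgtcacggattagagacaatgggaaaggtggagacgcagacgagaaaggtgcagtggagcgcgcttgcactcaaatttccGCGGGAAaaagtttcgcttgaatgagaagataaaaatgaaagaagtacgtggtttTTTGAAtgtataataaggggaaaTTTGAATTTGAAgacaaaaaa
lin-54: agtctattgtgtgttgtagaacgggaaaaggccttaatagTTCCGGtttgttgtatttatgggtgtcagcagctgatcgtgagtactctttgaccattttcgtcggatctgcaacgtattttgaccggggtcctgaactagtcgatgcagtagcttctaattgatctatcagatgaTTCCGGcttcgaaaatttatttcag
lin-37: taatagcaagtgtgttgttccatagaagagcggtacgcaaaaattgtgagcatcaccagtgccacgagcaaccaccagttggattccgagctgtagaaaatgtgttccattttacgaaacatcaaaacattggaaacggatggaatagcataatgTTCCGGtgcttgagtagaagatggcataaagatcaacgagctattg

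Across the family, *lin-35* held the one region in the optimal list. The strongest regions of *lin-9* (60.9), *lin-54* (48.2) and *lin-37* (36.4) stood above the pooled median of 34.9 without reaching that list. Those of *efl-1* (30.8) and *lin-52* (32.1) lay below that median, and *dpl-1* and *lin-53* had no pooled region. The pooled list, called on both replicates together, placed a summit in the window of 6 of the 8 members, against 40.0% of all protein-coding genes (8003 of 19985). The optimal list, the stricter set that the authors derived by irreproducible discovery rate (IDR) analysis, had a summit at 1 of 8, *lin-35*, against 3.42% of all genes (683 of 19985), and this count follows from how the family was chosen. The lists of the single replicates had summits at 7 of 8 members in replicate 3, against 50.2% of all genes, and at 7 of 8 in replicate 4, against 48.8%. Within promoters, meaning the stretch that starts 1000 bp before an annotated 5' end and stops 200 bp after it, 6 of 8 members had a pooled summit, against 21.6% of all genes, and 1 had an optimal summit, against 2.07%. The windows had a median length of 4507 bp in the members and 4026 bp in all genes. These counts describe 8 genes chosen with results known, and no test was made of them. The pooled list was deposited as peaks and background for input to IDR, and the replicate lists as relaxed input. Counts from these lists, and the shares of all genes beside them, may thus include background regions. They are not counts of binding sites.

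The 6 members with pooled summits held 11 pooled regions, of which 6 overlapped a region in the lists of both replicates, against 58.2% of all 11626 pooled regions. Of the other 5, 1 was found in replicate 3 alone and 4 in replicate 4 alone. The same split over all pooled regions is not given here, so it is not read as a trait of these genes. A pooled region matched in both replicates was found at 5 of 8 members (*lin-35*, *efl-1*, *lin-9*, *lin-37* and *lin-54*), against 25.8% of all protein-coding genes. At *efl-1*, overlapping pooled regions were matched to the same pair of replicate regions, so that pair enters the count of 6 more than once. The summits of that pair lay 601 bp and 220 bp upstream of *efl-1*. At *lin-53* the replicates had overlapping regions with no pooled one. Signals are the authors' values per region, on a scale not given in the sources used here, and pooled signals ran near the sum of the replicates' signals (median ratio 0.992 over 6764 matched regions). A signal from the pooled list is thus compared only with others of that list. The 10 member regions outside the optimal list had signals of 27.5 to 60.9, with a median of 33.2, close to the median of 34.3 over all 11031 pooled regions outside the optimal list. Over the members with a pooled summit, the strongest signal per gene had a median of 42.3, against 37.6 over 8003 genes.

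**Figure D1:**
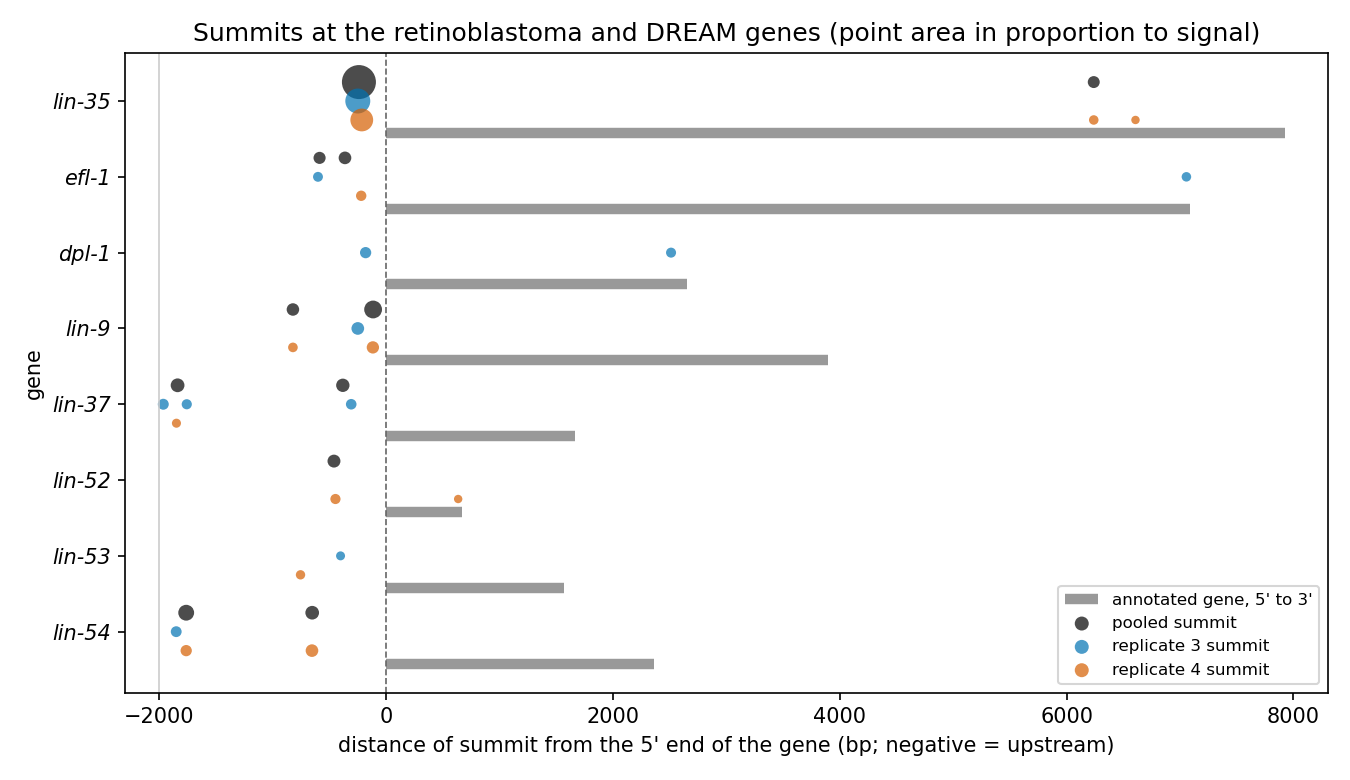
Position of every summit at the 8 members, as distance from the 5' end of the gene in bp, for the pooled list and for replicates 3 and 4; grey bars are the annotated genes and the area of a point is in proportion to its signal. The large points upstream of *lin-35* stand for signals of 222 (pooled), 120 (replicate 3) and 99.7 (replicate 4), while *dpl-1* and *lin-53* have no pooled point.

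The gene *lin-35* (WBGene00003020, I:5807709-5815637, forward strand, ce11) encodes the retinoblastoma homolog. Its region lay at I:5807229-5807708 with a pooled signal of 222, rank 43 of 11626. Its signal was 120 in replicate 3, rank 39 of 16227, and 99.7 in replicate 4, rank 61 of 15533. It was thus among the strongest regions of either replicate, and the summits of the replicates lay 10 bp to one side and 25 bp to the other of the pooled summit. Among the 11607 regions of the nuclear chromosomes it ranked 28. The log2 ratio of replicate 3 to replicate 4 was 0.26, within the spread of that ratio over the 595 optimal regions (median 0.01, SD 0.50), so the replicates differed by less than regions of this list commonly do. The pooled signal was 2.75 times the lowest signal of the optimal list, 80.7, and 3.64 times that of the next member region.

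The *lin-35* region fills a gap between divergently arranged genes. The annotated 5' ends of *lin-35* and of *vps-51*, which encodes a subunit of a vesicle-tethering complex of the Golgi and endosomes, are 418 bp apart, and the summit lay 240 bp upstream of *lin-35* and 178 bp upstream of *vps-51*. The region ended 1 bp before the start of *lin-35* and covered 63 bp of *vps-51*. A region of this width does not assign the signal to either gene. No small RNA gene (tRNA, snoRNA, snRNA, miRNA) and no rRNA gene was annotated within 500 bp of the summit. A further pooled region of *lin-35*, inside its coding sequence 6239 bp downstream of the 5' end, had a signal of 27.5, rank 11623 of 11626. It was in the list of replicate 4, with a signal of 17.4, and not in that of replicate 3. Replicate 4 alone listed another region 6607 bp downstream, with a signal of 13.6 (rank 13567).

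Ordered by the strongest pooled signal in a promoter, *lin-35* and *vps-51* shared rank 22 of 4310 genes. Just above them were *gcy-33*, which encodes a guanylate cyclase of sensory neurons, and *cpr-9*, which encodes a cathepsin B-like protease, both at 1 region with a signal of 229 (118 in replicate 3 and 112 in replicate 4). Just below were *eel-1*, which encodes a HECT-type ubiquitin ligase, with a signal of 222 (111 in replicate 3 and 114 in replicate 4), and *C41C4.9*, with 219 (118 and 96.2 in the same order). On the log2 scale these signals differ from that of *lin-35* by less than the spread between the replicates. A tRNA gene lay 2 bp from the summit at *gcy-33* and *cpr-9* and a snoRNA gene 51 bp from that at *C41C4.9*, whereas *eel-1*, like *lin-35*, had none within 500 bp.

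**Figure D2:**
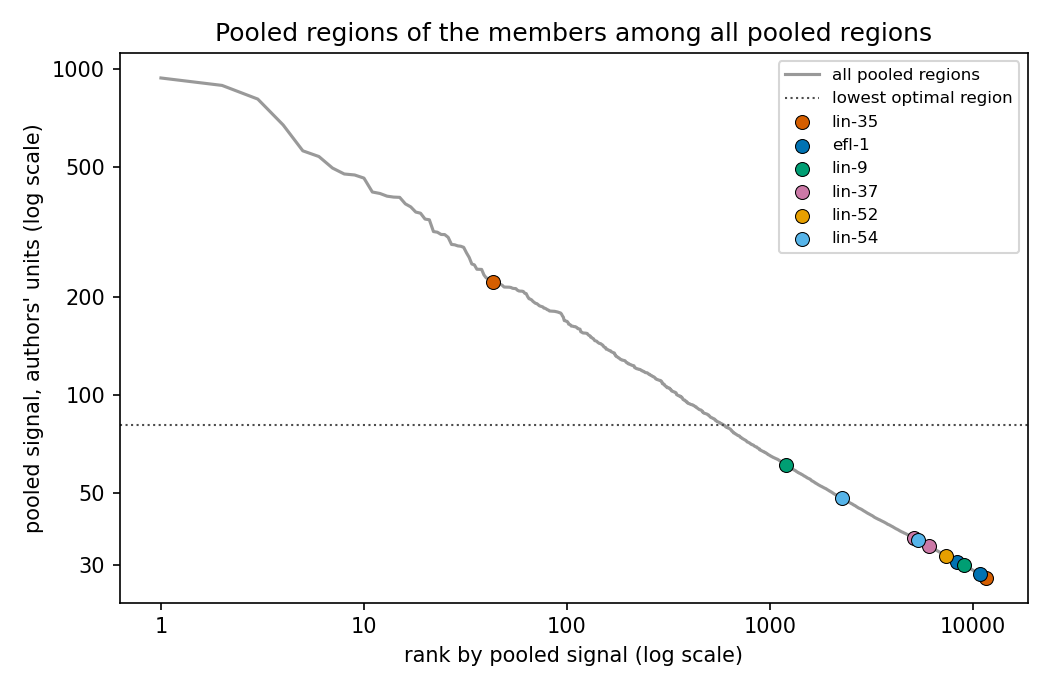
Pooled signal against rank for all 11626 pooled regions, both on log scales, with the 11 regions of the members marked by gene and the lowest optimal signal as a dotted line. The strongest *lin-35* region stands at rank 43, the next member region, of *lin-9*, at rank 1200, and the others between ranks 2270 and 11623.

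The E2F and DP partners of the complex had no pooled region above the median of the list. At *efl-1* (WBGene00001161, V:16958590-16965675, reverse strand), which encodes the E2F subunit, overlapping pooled regions lay at V:16965798-16966277 and V:16966022-16966501 with signals of 30.8 and 28.2, ranks 8374 and 10811. Both were matched to the same replicate regions, which had signals of 18.8 in replicate 3 and 20.7 in replicate 4. The summits of these replicate regions lay 601 bp and 220 bp upstream of *efl-1*, so the replicates placed the signal in different parts of the intergenic stretch that *efl-1* shares with *fbxa-90*, an F-box gene on the other strand. Replicate 3 alone had a further region at the 3' end of *efl-1*, with a signal of 17.4. At *dpl-1* (WBGene00001061, II:9169910-9172565, forward strand), which encodes the DP subunit, no pooled region was found. Replicate 3 listed a region 181 bp upstream of *dpl-1*, inside *T23G7.2*, a gene on the other strand that spans the whole of *dpl-1*, with a signal of 24.3 (rank 3463), and another at the 3' end of *dpl-1* with 19.3, and replicate 4 listed none.

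Of the MuvB core genes, *lin-9* had the strongest region. LIN-9 is a scaffold of the core. The gene lies at III:8900237-8904131 on the reverse strand (WBGene00002998), and the region at III:8904006-8904485 had a pooled signal of 60.9, rank 1200, with 30.9 in replicate 3 and 29.1 in replicate 4, ranks 1518 and 1571. The replicates were close in signal (log2 ratio 0.09), and the pooled summit lay 115 bp upstream of *lin-9*, with no other gene's promoter there. The summit of replicate 4 lay 2 bp from the pooled one and that of replicate 3 was 135 bp away. The signal was below the lowest of the optimal list, 80.7, and above the median of the pooled list, 34.9, at percentile 89.7 of that list. A weaker pooled region 822 bp upstream, at 30.1, lay also in the promoter of *unc-32*, a subunit of the vacuolar proton pump, and was in replicate 4 alone.

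The regions of *lin-37*, *lin-52* and *lin-54* lay in the coding sequence of neighbouring genes. The gene *lin-37* (WBGene00003022, III:7070890-7072552, reverse strand) encodes a core subunit needed for repression by DREAM. A region in *ZK418.5*, 382 bp upstream of *lin-37*, had a pooled signal of 34.3 and was in replicate 3 alone, at 21.5. Another in *ZK418.13*, 1839 bp upstream, had 36.4, with 19.8 in replicate 3 and 15.8 in replicate 4, and lay in the promoter of *ZK418.5* and not of *lin-37*. Replicate 3 also listed a region 1965 bp upstream, at 23.1, which overlaps the same pooled region and the same replicate 4 region but has its summit farther from the pooled one. The region at 1839 bp was the pooled member region farthest upstream inside the 2000 bp limit, and the nearest one outside it was 2732 bp upstream of *lin-52*, with a signal of 38.0. The gene *lin-52* (WBGene00003035, III:9824083-9824750, reverse strand) encodes the subunit that links the core to the retinoblastoma protein. Its 1 pooled region lay 460 bp upstream in *ZK632.9*, with a signal of 32.1, and was in replicate 4 alone, at 19.9. Replicate 4 also listed a region at the 3' end of *lin-52*, with 13.6. Its summit lay in the 3' untranslated regions of both *lin-52* and *arl-5*. Replicate 3 listed no region for *lin-52*.

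The gene *lin-54* (WBGene00003037, IV:13241044-13243401, forward strand) encodes the CHR-binding subunit. The stronger of 2 pooled regions lay 1763 bp upstream, at IV:13239041-13239520 in the coding sequence and promoter of *tag-115*, 204 bp from the snoRNA gene *JC8.15*. It had a signal of 48.2, rank 2270, with 22.6 in replicate 3 and 24.5 in replicate 4. The other, 652 bp upstream, lay in *rpl-12*, a ribosomal protein gene, and within the promoters of *lin-54*, *rpl-12* and *tag-115*. Its pooled signal was 35.9, and replicate 4 listed it at 30.6 (rank 1378) while replicate 3 did not list it. That region was thus at percentile 91.1 of the list of replicate 4 and missing from that of replicate 3.

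At *lin-53* (WBGene00003036, I:9618196-9619760, reverse strand), which encodes a histone-binding WD40 protein shared with other chromatin complexes, no pooled region was found. Replicate 3 listed a region 402 bp upstream with a signal of 15.5, also in the promoter of *nra-2*, and replicate 4 one 755 bp upstream, inside *nra-2*, with 16.9. These overlapped each other. The rank was 14072 of 16227 in replicate 3, near the bottom, and 7537 of 15533 in replicate 4, near the middle.

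None of the sequence elements searched was found at the *lin-35* region. CCGGAA, ACCGGAAG (which contains it), GCGGGAA and TTTGAA had 0 matches on either strand in the whole 480 bp, and 36.8% of the 201 bases around the summit were G or C. This says only that these letters are not in this window. Within 100 bp of the summit, CCGGAA lay in 2 of the 11 pooled member regions, against 14.1% of all pooled regions, in the regions of *lin-54* and *lin-37* printed above. ACCGGAAG was in 0 of 11, against 3.31%, and GCGGGAA in 0 of 11, against 3.30%. TTTGAA lay in 7 of 11, against 34.6% of pooled regions, and 3 matches in 1 window were found in 2 of the 11, against 2.12% with 3 or more. These were the *lin-9* region and the first *efl-1* region. The *efl-1* region of replicate 4 held the E2F type GCGGGAA starting 2 bp from its summit, chosen for printing after it was seen. Neither pooled *efl-1* region held it within 100 bp of the summit, and the share over all replicate 4 regions is not given here. Base composition of the 11 windows ran from 32.8% to 49.3% G or C, with a median of 40.8%, against 41.3% over the nuclear pooled regions. With 11 regions, of which some overlap, these shares are descriptions.

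Genes related to the family were taken in 8 lists of 51 genes in all. The lists are not all of partners: they include germline genes, S phase and division genes, and partners of LIN-53 in other complexes. Optimal summits were found in 3 and pooled summits in 37, which is 5.88% against 3.42% of all genes and 72.5% against 40.0%. The median window of these genes was 5398 bp, longer than the 4026 bp of all genes, and the part of window length in these shares was not tested. Within promoters alone, 27 of the 51 had a pooled summit, against 21.6% of all genes, and 2 an optimal one, against 2.07%. Upstream regulators of LIN-35 had optimal summits at 2 of 9. At *cye-1*, which encodes cyclin E, a kinase partner that acts on retinoblastoma proteins, a region at I:6781719-6781857 had a pooled signal of 213, rank 54, with 118 in replicate 3 and 99.0 in replicate 4. The values in the replicates nearly match those of *lin-35*, whereas the place differs: the summit lay 1006 bp inside the gene, outside coding exons, and within a tRNA gene. At *cki-2*, which encodes a cyclin-dependent kinase inhibitor, a region 913 bp upstream had a pooled signal of 169, rank 97, with 71.8 in replicate 3 and 96.9 in replicate 4, and CCGGAA within 100 bp of its summit.

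**Figure D3:**
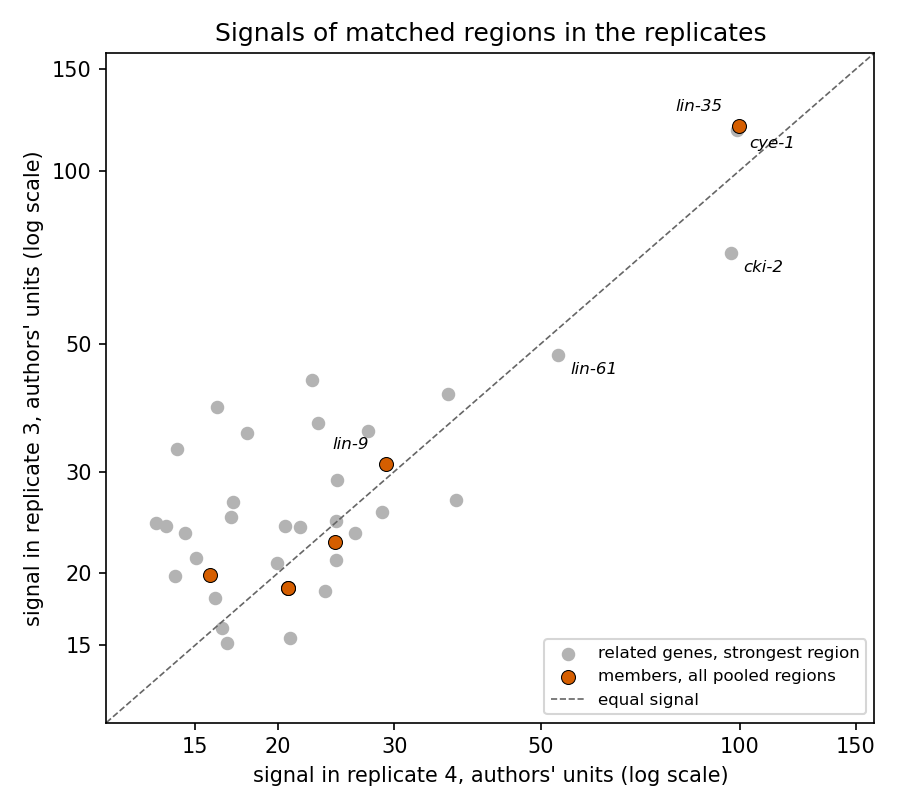
Signal in replicate 3 against signal in replicate 4, both on log scales, for the member regions and for the strongest region of each related gene where both replicates list a region; the dashed line marks equal signal. The point of *lin-35* (120 and 99.7) nearly covers that of *cye-1* (118 and 99.0), and the overlapping *efl-1* regions share 1 point.

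Of the other lists, the synMuv B and heterochromatin genes had optimal summits at 1 of 8, against 3.42% of all genes. They had pooled summits at 6 of 8, against 40.0%. Their median window was 6887.5 bp, against 4026 bp for all genes. The optimal region was that of *lin-61*, which encodes a reader of histone methylation, with a pooled signal of 94.3 (47.9 in replicate 3 and 53.2 in replicate 4), 396 bp upstream and also in the promoter of *bub-1*, a spindle checkpoint kinase gene. It held 3 TTTGAA matches within 100 bp of the summit. No optimal summit was found in the other 6 lists. Among the germline genes the strongest was *mes-4*, which encodes a histone methyltransferase, with a pooled signal of 77.4 (41.0 in replicate 3 and 36.2 in replicate 4) in its own coding sequence and ACCGGAAG near the summit. Of the E2F family genes, *efl-3* had 62.7 inside the gene, with 43.3 in replicate 3 and 22.5 in replicate 4. That ratio between replicates is wider than at *lin-35*. The strongest synMuv A gene was *lin-8*, with 60.5 at 1089 bp upstream. Of the S phase and division genes, *cdc-6*, a replication licensing gene, had 59.2 at 292 bp upstream, in a promoter shared with *acin-1*. For the NuRD and Mec partners it was *mep-1*, a zinc finger protein gene, with 52.2 at 203 bp upstream (38.9 in replicate 3 and 16.2 in replicate 4), and for the partners of LIN-53 it was *hcp-3*, the centromeric histone gene, with 48.1 at 133 bp upstream. All of these lay below the lowest optimal signal. Against the 40.0% of all genes, pooled summits were found at 6 of 9 upstream regulators, 1 of 2 E2F family genes, 4 of 4 synMuv A genes, 5 of 5 NuRD and Mec partners (median window 7999 bp), 5 of 6 partners of LIN-53, 2 of 5 germline genes and 8 of 12 S phase and division genes.

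**Figure D4:**
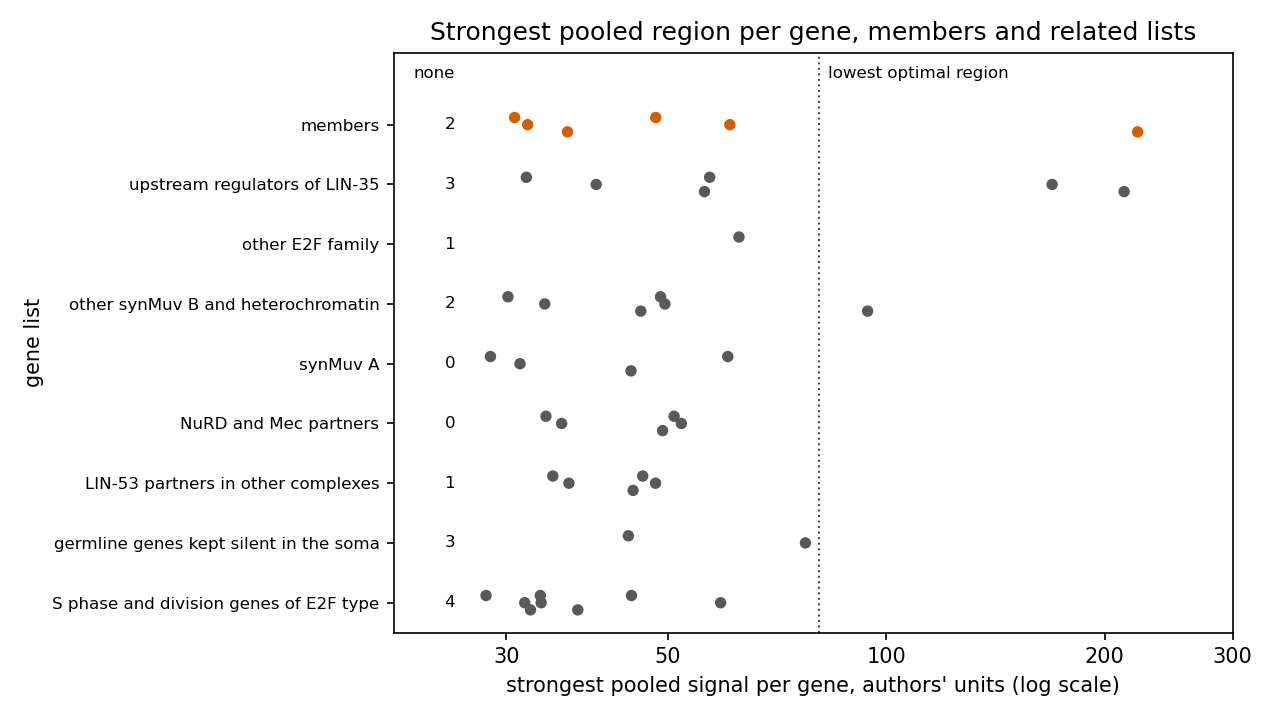
Strongest pooled signal per gene, on a log scale, for the members and the 8 related lists, with the lowest optimal signal as a dotted line and the number of genes without a pooled summit at the left. Only *lin-35* (222), *cye-1* (213), *cki-2* (169) and *lin-61* (94.3) lie above the line among these genes.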

How the data were processed

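ChIP-seq of tagged ETS-7 was analysed from the region lists on the ce11 build. Per the deposited descriptions of the files, regions were called by the authors on each replicate and on the pooled alignments, each with a control, as relaxed input for IDR, and the optimal list was derived from those. The signal of each region is the value deposited by the authors, with aligner, caller and scaling not given in the sources used here. The optimal list is exactly the 595 pooled regions of highest signal. The pooled list as a whole is labelled as peaks and background. No read counts were used, so the depth per sample is unknown. Lists on ce10, signal tracks and controls were not analysed here.

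Genes came from Ensembl release 115 and bases from the RefSeq genome, both WBcel235, which is ce11. Positions are 1-based. Replicate regions were matched to a pooled region by an overlap of at least 1 bp, taking the nearest summit. No significance test was run. Members, lists and motifs were chosen with earlier results of these data known. Named genes are all members, the genes sharing their regions, the 2 genes on either side of *lin-35* in promoter signal, and, for each related list, those with optimal regions and the strongest. The counts were made in Python 3.11.15 with pandas 2.3.3 and NumPy 2.4.6, and the plots with matplotlib 3.10.9. SciPy 1.17.1 was used for a binomial interval on the percentile of *lin-35*, which is not reported here. The counting was tested on simulated data.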

Additional observations from a re-analysis of the deposited data

How the results depend on the processing

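The counts were recomputed with shorter windows, promoters alone, overlap in place of summits, the stronger part of each list, and each replicate left out. Leaving one out means taking the list of the other, and for the optimal list its 595 strongest regions, since no optimal list of 1 replicate was used. The count of members with an optimal summit was 1 in all 7 alternatives. That member is *lin-35*, chosen for its strong promoter region, so the unchanged count follows from the choice. Members with a pooled summit ran from 4 to 7 around the 6 reported, at 7 without replicate 3 and 7 without replicate 4. Apart from the shares given above for promoters and for the lists of single replicates, shares of all genes or regions under the changed settings are not given here. Changes in the counts of this section are thus descriptions. The percentile of the *lin-35* region, 99.6 in the pooled list, was 99.61 to 99.77 with a replicate left out and 99.77 over nuclear chromosomes alone. Its log2 ratio between replicates was 0.08 after dividing signals by the median of each list. CCGGAA was in 0 of the 11 member regions within 50 bp of the summit, against 2 reported, and in 0 of the 1 member region that is optimal, that of *lin-35*, which was already known to hold none. Members with a pooled region matched in both replicates numbered 5, and 3 with summits at most 100 bp apart. For the related genes, in alternatives added after the data were seen, 3 had optimal summits, 5 had summits among the 595 strongest regions of replicate 4 (without replicate 3), where *fzr-1* (49.3) and *lin-13* (46.2) come in, and 4 among those of replicate 3 (without replicate 4), where *efl-3* (43.3) comes in. The cause of these shifts was not tested. No paired analysis was possible because there is 1 group. Depth is unknown, so a region missing from a list may be present below its threshold.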
